A study of Mus musculus with 6 samples.

Results

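The potassium channel genes described here are the 57 of 26728 entries in the deposited expression table whose symbol names a Kv2 to Kv12 channel subunit, a silent Kv subunit, a KCNE or KChIP partner, Slack or Slick, or an inward rectifier. They were chosen by symbol alone, from Kcnb, Kcnc, Kcnd, Kcne, Kcnf, Kcng, Kcnh, Kcnip, Kcnj, Kcnq, Kcns, Kcnt and Kcnv followed by a number. RNA was sequenced from untreated adult C57/BL6 mice, as carotid body pools CB1 to CB3 and adrenal medulla pools AM1 to AM3. The carotid body is the small organ at the carotid bifurcation that senses arterial oxygen, while the medulla of the adrenal gland secretes catecholamines into blood. The series' design text gives 10 mice for a pool, which supplied 18 carotid bodies or 10 adrenal medullas, and n below is the number of pools. The comparison asks how the channel genes of the oxygen-sensing organ differ from those of a related secretory tissue.

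Potassium channels set the resting potential of excitable cells and end their action potentials. In glomus cells of the carotid body, closure of potassium channels in hypoxia depolarises the membrane and starts transmitter release, and in chromaffin cells of the adrenal medulla potassium currents shape the firing that drives catecholamine secretion. Kv alpha subunits form voltage-gated pores, silent subunits reach the membrane only together with Kv2 subunits, KChIP and KCNE proteins are partners that tune the pores, and inward rectifiers pass potassium near the resting potential.

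Values are RPKM, reads scaled by mRNA length and by library size, so levels are compared between genes per length. The libraries held 13266225 to 16445925 reads, and 1 read of a 2 kb mRNA corresponds to 0.0304 to 0.0377 RPKM. The tissues are whole dissections, and marker genes of their cell types differed between them. Among adrenal cortex markers 12 of 12 tested were higher in the adrenal medulla libraries, with summed levels of 14015 to 18174 RPKM against 105 to 219 RPKM in the carotid body. Of 12 smooth muscle and pericyte markers 11 were higher in the carotid body (2566 to 3103 against 109 to 118 RPKM). The same held for 11 of 11 glial markers (481 to 654 against 58.6 to 85.8 RPKM), 10 of 10 fibroblast markers and 9 of 12 endothelial markers. Catecholamine cell markers were present in both tissues, with sums of 2588 to 3493 RPKM against 14734 to 24829 RPKM. Of 10 such markers 1 was called to the carotid body and 6 to the adrenal medulla, and of 12 neuronal markers 3 and 1. Calls to the carotid body numbered 3 of 10 for macrophage and 2 of 5 for skeletal muscle markers, with 0 to the adrenal medulla in both lists. For 9 adipocyte markers and 1 marker of parathyroid or thyroid that could be tested, limma called 0, and the parathyroid genes Pth and Gcm2 had 0 reads. Adipocyte markers summed to 3796 RPKM in CB2 and 2309 RPKM in AM3, against 238 to 927 RPKM in the other 4 pools, so these 2 pools stood apart by this sum. The single gene Cfd made up 1641 RPKM of the sum in AM3 and 669 RPKM in CB2. How far these other cells contributed to the channel values below was not tested. In whole tissue, fewer cells of a type and less RNA per cell cannot be told apart.

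The 57 genes summed to 109 ± 4.26 RPKM in the carotid body (SD, n = 3) and, with the same n, to 111 ± 5.49 RPKM in the adrenal medulla, and the tissues differed in which families made up that sum. Inward rectifiers supplied 46.8%, 45.0% and 37.6% of it in CB1, CB2 and CB3, and 22.7%, 22.9% and 20.7% in the adrenal medulla pools. KChIP subunits supplied 7.51%, 12.1% and 17.7% in the carotid body against 42.8%, 34.8% and 34.3% in the adrenal medulla. These 2 families therefore changed places as the largest share. Neither family's shares overlapped between the tissues, and with 3 pools against 3 no exact two-sided permutation test can go below 0.1. KCNE transcripts had a larger share in each carotid body pool, at 5.73% to 7.53%, than in the adrenal medulla, at 1.24% to 2.30%. Kv3 subunits took 8.01% to 12.9% and 8.98% to 20.3%, and the Kv4, silent, ether-a-go-go and Slack and Slick groups at most 6.16% each in any pool.

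**Figure D1:**
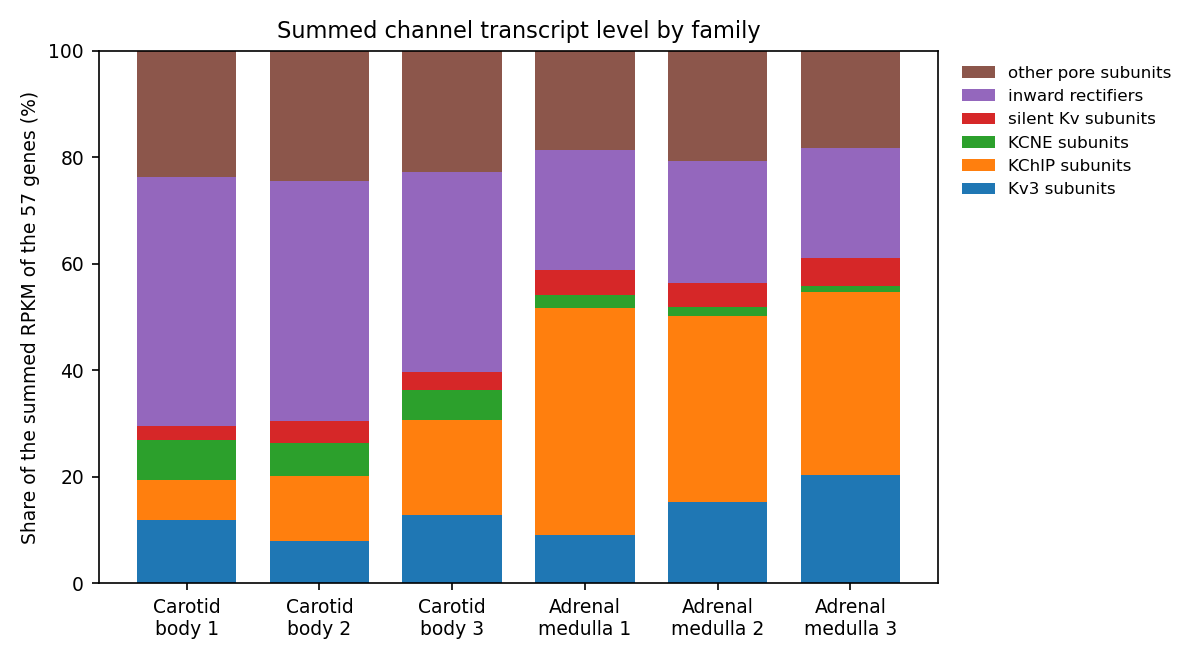
Share of the summed RPKM of the 57 genes taken by each family (vertical axis, percent), with 1 stacked bar for each carotid body and adrenal medulla pool and the remaining families joined as other pore subunits. Inward rectifiers fill 37.6% to 46.8% of the carotid body bars, and KChIP subunits 34.3% to 42.8% of the adrenal medulla bars.

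Most of these genes were scarce. Only 4 had a mean of at least 10 RPKM in either tissue, and 35 had a mean under 1 RPKM in both. The 19 that reached 1 RPKM in at least 3 libraries were tested with limma on log2(RPKM + 1), fitted across all 13357 such genes with Benjamini-Hochberg adjustment. Of these 19, limma called 8 toward the carotid body, 3 toward the adrenal medulla and 8 in neither direction at an adjusted p threshold of 0.05. Across all genes tested it called 21.9%, made up of 14.2% toward the carotid body and 7.73% toward the adrenal medulla. A gene that passed the filter through its higher tissue alone was bound to differ and could not overlap. The shares of these 19 called and without overlap are therefore descriptions only. Kcnc1, Kcne3, Kcng2, Kcnj13 and Kcns3 reached 1 RPKM in no pool of their lower tissue. Over all 19 tested members the median log2 difference, carotid body minus adrenal medulla, was 0.46, against 0.02 over all genes. It was -0.33 over the 11 members left by a filter of 3 RPKM. In 13 of the 19, the 11 called ones among them, the pools of the 2 tissues did not overlap, 8 with the carotid body and 5 with the adrenal medulla above. Over all genes tested 37.0% did not overlap, 22.3% and 14.7% in these directions. With CB2 and AM3 left out the counts of calls were 7 and 3, and over all genes limma then called 1928 toward the carotid body and 2067 toward the adrenal medulla, against 1896 and 1033 with all pools. The share of all calls toward the carotid body was 48.3% then and 64.7% with all pools. With the replicate number as a block they were 9 and 4, where limma called 27.0% of all genes, 16.9% and 10.2% in these directions. All log2 differences below are on the log2(RPKM + 1) scale unless voom, limma's model for read counts, is named, and that scale understates the differences of low genes.

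**Figure D2:**
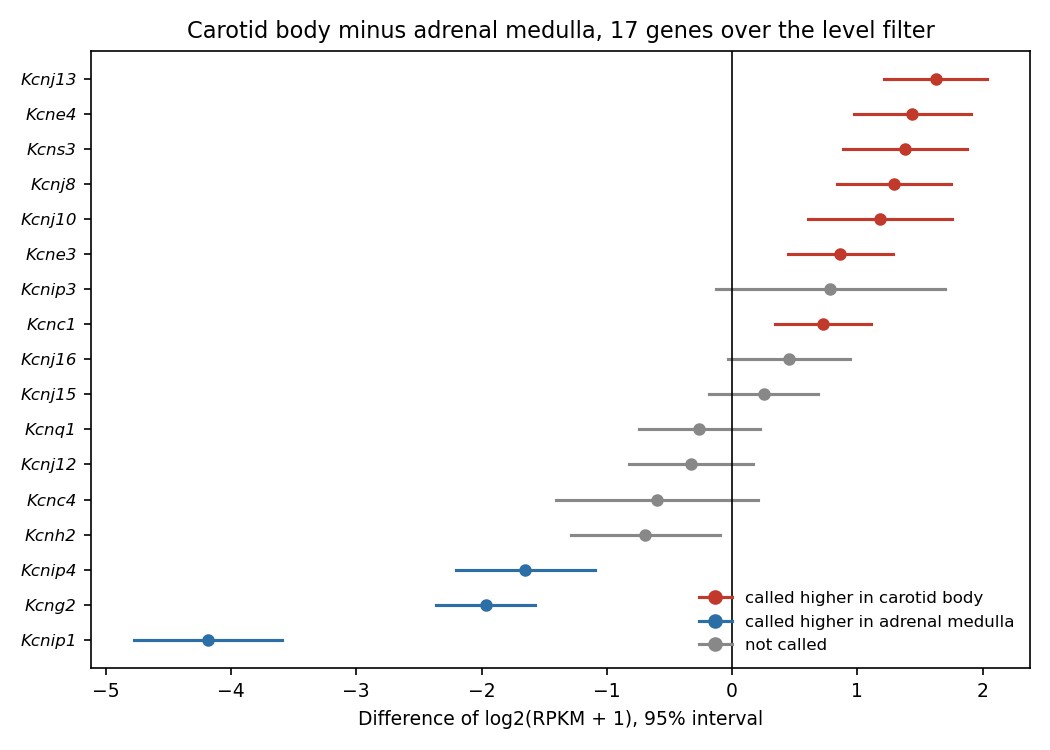
Difference in log2(RPKM + 1), carotid body minus adrenal medulla (horizontal axis), for 17 genes over the level filter (rows), with 95% intervals from limma and colour for the call. Kcnip1 lies farthest to the adrenal side at -4.18 and Kcnj13 farthest to the carotid body side at 1.62.

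KChIP proteins are calcium-binding partners that bind Kv4 channels, raise their surface number and alter their inactivation. Kcnip1, which encodes KChIP1, had the largest difference of the 19 tested members on the log2(RPKM + 1) scale. It stood at 0.451, 1.05 and 0.364 RPKM in CB1, CB2 and CB3 and at 34.2, 21.9 and 29.0 RPKM in the adrenal medulla pools. The lowest adrenal medulla pool was far above the highest carotid body pool, and the means differed 45.6-fold (log2 -4.18 ± 0.26, SE; limma adjusted p = 2.07e-05). Its carotid body value rested on 60 reads and its adrenal medulla value on 2865. By voom its log2 difference was -5.62, next to -5.64 for Kcns2. In the adrenal medulla it was the most abundant of the 57 genes. Kcnip4, the gene of KChIP4, was at 1.61, 1.66 and 1.44 RPKM in the carotid body and at 8.27, 8.72 and 4.81 RPKM in the adrenal medulla. Its groups did not overlap either (log2 -1.65 ± 0.24, adjusted p = 0.00146). Cortex transcripts were present in the same adrenal medulla libraries, and their part in these values was not tested.

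Kcnip3 had its higher mean in the carotid body and was not called. It encodes KChIP3, also known as calsenilin and as the transcriptional repressor DREAM. CB1, CB2 and CB3 held 5.67, 9.89 and 17.4 RPKM of it and the adrenal medulla pools 3.30, 7.25 and 6.35 RPKM, so that the groups overlapped. The log2 difference was 0.78 with a 95% interval of -0.13 to 1.70 (adjusted p = 0.221), and with the replicate number as a block limma called it (adjusted p = 0.0481). Kcnip2 stayed below the filter at 0.143 to 0.931 RPKM in the carotid body and 0.0925 to 0.203 RPKM in the adrenal medulla. As a share of summed KChIP level, Kcnip3 made up 72.1%, 74.2% and 86.4% in the carotid body, and Kcnip1 made up 74.6%, 57.6% and 72.0% in the adrenal medulla. The main KChIP transcript thus differed between the tissues in every pool.

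The promoters of Kcnip1 are shown because of the size of its difference and its level, as the 250 bases before each of its 3 starts in RefSeq on GRCm38.p6, minus strand, written 5′ to 3′ along the gene. The deposited entry lists 3 RefSeq accessions for Kcnip1, so its value does not tell which start was used. Capitals mark the core of a hypoxia response element (ACGTG or GCGTG) or of a GATA site (AGATAA or TGATAA) on either strand. Hypoxia-inducible factors bind the first and GATA factors the second, and such a match is a description of letters, not a bound site.
Kcnip1, chr11:33680683-33680932: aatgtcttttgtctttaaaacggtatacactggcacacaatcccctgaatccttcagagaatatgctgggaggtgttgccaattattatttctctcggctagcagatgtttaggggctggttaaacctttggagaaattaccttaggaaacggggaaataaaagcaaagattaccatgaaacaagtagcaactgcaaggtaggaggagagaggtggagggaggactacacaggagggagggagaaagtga
Kcnip1, chr11:33843687-33843936: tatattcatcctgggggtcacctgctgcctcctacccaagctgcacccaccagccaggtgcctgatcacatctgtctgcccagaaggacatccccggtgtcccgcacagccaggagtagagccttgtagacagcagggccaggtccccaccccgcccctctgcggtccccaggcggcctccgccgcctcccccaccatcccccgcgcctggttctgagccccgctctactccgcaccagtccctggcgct
Kcnip1, chr11:33993194-33993443: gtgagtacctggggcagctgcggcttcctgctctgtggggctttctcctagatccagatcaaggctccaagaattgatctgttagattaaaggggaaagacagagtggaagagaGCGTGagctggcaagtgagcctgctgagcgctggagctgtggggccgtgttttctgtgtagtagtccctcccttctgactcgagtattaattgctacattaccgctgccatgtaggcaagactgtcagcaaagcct
The third of these windows holds 1 hypoxia core, starting 136 bases before the start, and the other 2 hold no match. Of all 32851 RefSeq promoter windows of this length, 38.6% hold a hypoxia core and 16.6% a GATA core. Of the 55 windows listed for 39 of the 57 channel genes, 30.9% and 10.9% do.

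Kv4 subunits, the rapidly inactivating pores that KChIP proteins bind, were all below the filter. Kcnd1, Kcnd2 and Kcnd3 summed to 0.954, 1.00 and 0.790 RPKM in the carotid body and to 2.17, 1.98 and 0.611 RPKM in the adrenal medulla. Summed KChIP transcripts stood at 8.25, 13.3 and 25.5 times the summed Kv4 level in the carotid body and at 21.2, 19.3 and 66.0 times in the adrenal medulla, with overlapping groups. Kcnd3 was at 0.355, 0.157 and 0.161 RPKM against 1.09, 0.878 and 0.212 RPKM, and Kcnd2 at 0.317, 0.496 and 0.267 against 1.04, 0.814 and 0.120 RPKM. For both genes AM1 and AM2 lay above the carotid body and AM3 did not. By voom neither was called (adjusted p = 0.798 for Kcnd2 and 0.189 for Kcnd3), and the replicate block gave 0.0351 for Kcnd3. Dpp6, another partner of Kv4 channels, was higher in the adrenal medulla at 6.39, 6.33 and 6.37 RPKM against 2.38, 1.78 and 1.68 RPKM (log2 -1.33, adjusted p = 0.00136), and its relative Dpp10 reached at most 0.271 RPKM.

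**Figure D3:**
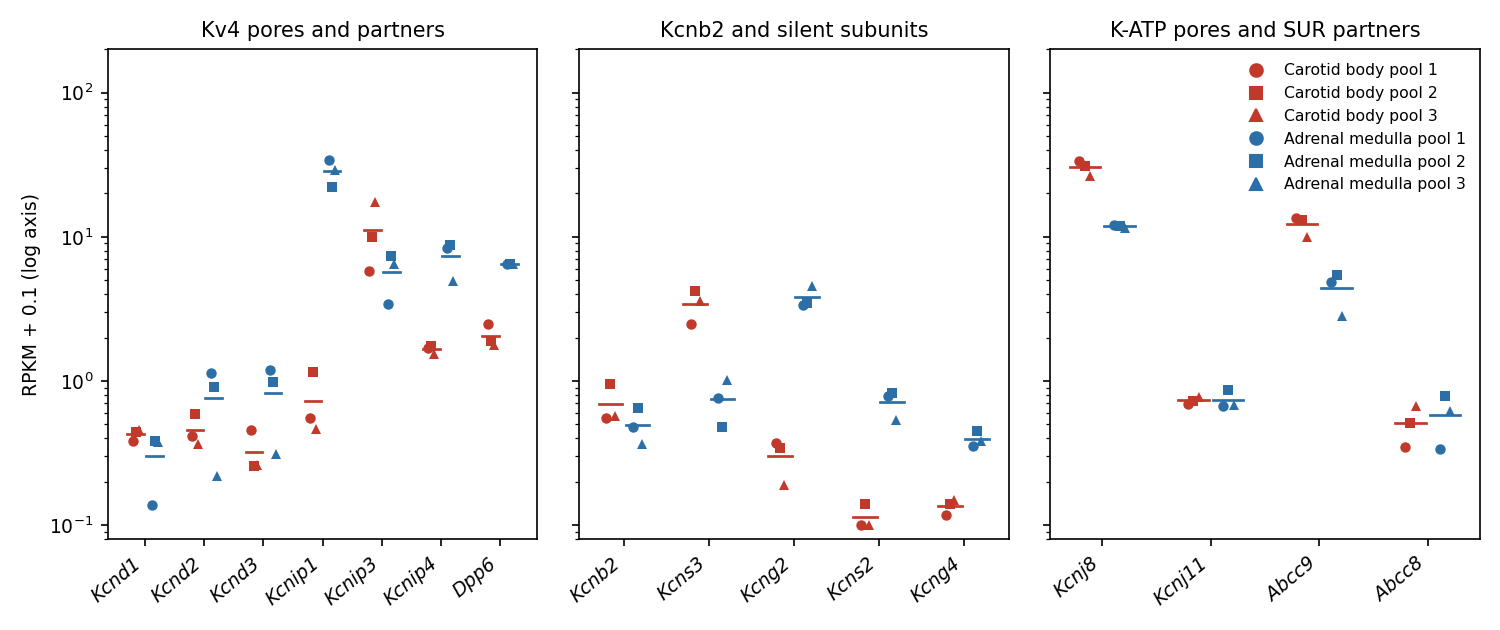
RPKM + 0.1 on a log axis for pore subunits and their partners in 3 panels, with 1 point per pool and a line at the mean of each tissue. The plot shows Kcnip1 at 21.9 to 34.2 RPKM in the adrenal medulla beside Kv4 genes of at most 1.09 RPKM, the opposite levels of Kcns3 and Kcng2, and Kcnj8 far above Kcnj11 in every pool.

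Silent subunits make no channel of their own and join Kv2 subunits, which carry delayed rectifier current, and here the leading silent subunit differed by tissue. Kcns3, which encodes Kv9.3, was at 2.37, 4.11 and 3.48 RPKM in the carotid body and at 0.660, 0.382 and 0.912 RPKM in the adrenal medulla (log2 1.38 ± 0.22, adjusted p = 0.00203). Kcng2, which encodes Kv6.2, was at 0.269, 0.241 and 0.0913 RPKM in the carotid body and at 3.28, 3.38 and 4.47 RPKM in the adrenal medulla (log2 -1.97 ± 0.17, adjusted p = 1.03e-04). Neither gene's groups overlapped, which the filter fixed, since each reached 1 RPKM only in its higher tissue. The means differed 5.10-fold for Kcns3 and 18.5-fold, in the other direction, for Kcng2. As a share of the summed level of the 10 silent subunits, Kcns3 made up 85.7%, 89.4% and 93.8% in the carotid body, and Kcng2 made up 65.2%, 68.4% and 72.8% in the adrenal medulla. The Kv2 gene Kcnb2 was at 0.263 to 0.852 RPKM over the 6 pools. Amigo1, a membrane protein that accompanies Kv2 channels, was not called at 7.29 ± 0.696 against 6.22 ± 1.34 RPKM (log2 0.21, adjusted p = 0.590).

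Scarcer silent subunits were also called toward the adrenal medulla. Kcns2, the gene of Kv9.2, had 0, 3 and 0 reads in the carotid body pools and 51, 57 and 39 in the adrenal medulla, a 48.1-fold difference in reads at equal depth with an exact 95% counting interval of 16.1 to 236. Kcng4, the gene of Kv6.4, had 1, 2 and 3 reads against 13, 19 and 18. Both were called by voom at adjusted p = 7.72e-04 and 0.00457. The other 6 silent subunits, Kcnf1, Kcng1, Kcng3, Kcns1, Kcnv1 and Kcnv2, had at most 11 reads each over all 6 libraries, and Kcng1 had 0.

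KCNE proteins are small single-span partners that change the gating of KCNQ, ERG and other channels, and both members that could be tested were higher in the carotid body. Kcne4 was at 5.57, 5.36 and 5.24 RPKM in the carotid body and at 1.86, 1.35 and 0.954 RPKM in the adrenal medulla (log2 1.44 ± 0.20, adjusted p = 0.00121). Kcne3 was at 2.33, 1.41 and 1.25 RPKM against 0.503, 0.420 and 0.411 RPKM (log2 0.86 ± 0.18, adjusted p = 0.00976). For both genes every carotid body pool was above every adrenal medulla pool, which for Kcne3 the filter fixed. Kcne1 had 3 reads and Kcne2 had 5 reads over all libraries, so 2 of 4 KCNE genes carried nearly all of the family's level. Smooth muscle and pericyte, glial and fibroblast markers were higher in the same carotid body libraries, and their part in the KCNE values was not tested.

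**Figure D4:**
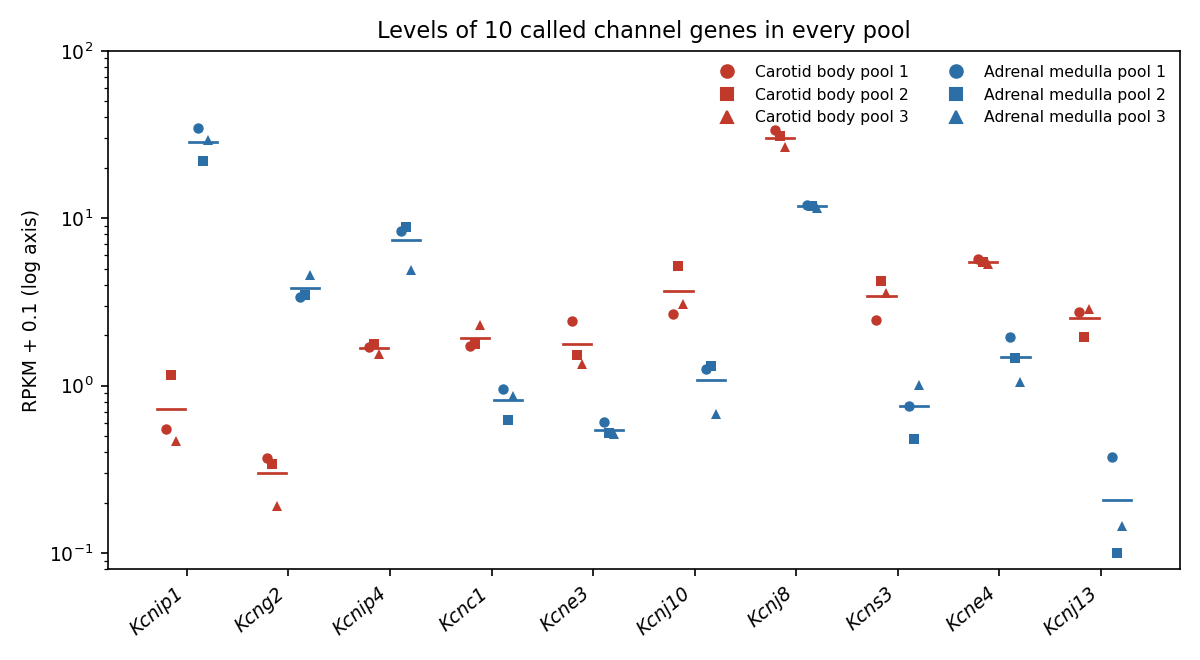
RPKM + 0.1 on a log axis for 10 called genes (horizontal axis, ordered by log2 difference), with 1 point per pool and a line at the mean of each tissue. The points of the 2 tissues are apart for each gene, from Kcnip1 at 21.9 RPKM or more in the adrenal medulla to Kcnj13 at 0.276 RPKM or less there. The genes were chosen by their call, and for Kcnc1, Kcne3, Kcng2, Kcnj13 and Kcns3 the level filter fixed the separation. Over all genes tested 37.0% did not overlap.

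Inward rectifiers were the largest family by level in the carotid body. Kcnj8 encodes Kir6.1, a pore subunit of ATP-sensitive channels that is typical of pericytes and vascular smooth muscle. It was the most abundant of the 57 genes in the carotid body, at 33.4, 30.9 and 26.4 RPKM, where the adrenal medulla held 11.9, 11.7 and 11.5 RPKM (log2 1.29 ± 0.20, adjusted p = 0.00184). The groups did not overlap, and the adrenal medulla pools had an SD of 0.215 RPKM. Kcnj8 alone was 61.9% to 68.1% of the inward rectifier level in the carotid body and 46.8% to 48.9% in the adrenal medulla. Abcc9 encodes the sulphonylurea receptor SUR2, which assembles with Kir6 pores. Its levels were 13.3, 13.0 and 9.95 RPKM against 4.79, 5.38 and 2.73 RPKM (log2 1.33 ± 0.27, adjusted p = 0.00702). In the same libraries Rgs5, which marks pericytes, was at 1669 ± 177 against 29.5 ± 7.12 RPKM, and 11 of 12 smooth muscle and pericyte markers were higher in the carotid body. The part of smooth muscle cells and pericytes in the Kcnj8 and Abcc9 values was not tested.

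The other pair of ATP-sensitive channel subunits was low in both tissues, with overlapping levels. Kcnj11, the gene of the Kir6.2 pore, was at 0.597, 0.629 and 0.680 RPKM in the carotid body and at 0.573, 0.765 and 0.586 RPKM in the adrenal medulla. The voom log2 difference was 0.00 with a 95% interval of -0.78 to 0.78. Abcc8, the gene of its partner SUR1, was at 0.251, 0.411 and 0.571 against 0.240, 0.693 and 0.516 RPKM. Kcnj8 therefore exceeded Kcnj11 55.9, 49.1 and 38.8 times in the carotid body pools and 20.8, 15.3 and 19.6 times in the adrenal medulla pools.

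Kcnj13, which encodes the weakly rectifying channel Kir7.1, had the largest difference toward the carotid body of the 19 tested members on the log2(RPKM + 1) scale. It was at 2.66, 1.84 and 2.76 RPKM there, on 52, 33 and 58 reads, and at 0.276, 0 and 0.0451 RPKM in the adrenal medulla, on 5, 0 and 1 reads. The filter fixed that the groups did not overlap, since no adrenal medulla pool reached 1 RPKM. The log2 difference was 1.62 ± 0.18 (limma adjusted p = 3.19e-04). By voom on reads it was 4.90 with a 95% interval of 3.23 to 6.57, below the 5.46 of Kcnh7. Exons of Kcnj13 overlap those of Gigyf2 on the opposite strand over 623 bases in the GENCODE M21 annotation, and no source used here states that counting kept the strand. Gigyf2 stood at 9.98 to 12.6 RPKM in the carotid body and at 9.41 to 13.8 RPKM in the adrenal medulla. The 250 bases before the starts of Kcnj13 and Kcnj8, the first for its difference and the second as the most abundant member in the carotid body, are shown from RefSeq on GRCm38.p6, minus strand, with capitals as for Kcnip1.
Kcnj13, chr1:87394730-87394979: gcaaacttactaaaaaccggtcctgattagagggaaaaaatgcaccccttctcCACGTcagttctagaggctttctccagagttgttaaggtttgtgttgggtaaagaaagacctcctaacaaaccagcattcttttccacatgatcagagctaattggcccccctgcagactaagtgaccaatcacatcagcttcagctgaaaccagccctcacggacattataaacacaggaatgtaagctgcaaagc
Kcnj8, chr6:142571615-142571864: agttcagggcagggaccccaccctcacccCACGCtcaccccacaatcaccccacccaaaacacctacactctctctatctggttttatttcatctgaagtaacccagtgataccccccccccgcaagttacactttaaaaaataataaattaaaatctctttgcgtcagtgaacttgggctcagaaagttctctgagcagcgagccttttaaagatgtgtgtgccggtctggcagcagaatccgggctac
Each holds 1 hypoxia core read on the other strand, starting 197 bases before the start in Kcnj13 and 221 bases before it in Kcnj8, and no GATA core. Of 9 windows listed for 7 of the 8 members called higher in the carotid body, 5 hold a hypoxia core and 0 a GATA core. Of 5 windows listed for 2 of the 3 members called higher in the adrenal medulla, 1 holds a hypoxia core and 1 a GATA core, and over all promoters the shares were the 38.6% and 16.6% given above.

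Kcnj10 encodes Kir4.1, the potassium-buffering channel of glial cells. It was at 2.59, 5.09 and 2.97 RPKM in the carotid body and at 1.16, 1.20 and 0.574 RPKM in the adrenal medulla, with no overlap (log2 1.18 ± 0.25, adjusted p = 0.00983). Its assembly partner Kcnj16, the gene of Kir5.1, was at 1.84, 3.00 and 2.35 against 1.02, 1.51 and 1.90 RPKM and was not called (log2 0.46, 95% interval -0.03 to 0.94, adjusted p = 0.182). Glial markers were higher in the carotid body for 11 of 11 genes tested. Their part in the Kcnj10 value was not tested.

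Of the classical strong rectifiers, Kcnj12, the gene of Kir2.2, was the most abundant and was not called. It was at 4.23, 4.79 and 3.99 RPKM in the carotid body and at 5.18, 4.89 and 7.23 RPKM in the adrenal medulla (log2 -0.33, 95% interval -0.83 to 0.17, adjusted p = 0.356). Kcnj2, the gene of Kir2.1, was at 0.794, 0.882 and 0.681 against 0.613, 0.218 and 0.133 RPKM and missed the voom call (adjusted p = 0.0554). Without AM1 its voom adjusted p was 0.0115. Kcnj15, the gene of Kir4.2 and not one of these strong rectifiers, was at 1.48 to 1.67 against 0.750 to 1.63 RPKM. It was not called (adjusted p = 0.428).

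The subunits of G protein-gated rectifiers, which open when receptors release G protein beta-gamma dimers, were low in both tissues, and Kcnj3 was the one called. Kcnj3, the gene of GIRK1, had 22, 12 and 13 reads in the carotid body pools against 1, 3 and 1 (voom log2 2.99 ± 0.58, adjusted p = 0.00593). Its exons overlap those of Gm26794 on the opposite strand over 1621 bases. Gm26794 has no entry in the deposited table, so its part in these reads was not tested. Kcnj5, the gene of GIRK4, was at 0.138, 0.101 and 0.157 RPKM in the carotid body and at 1.92, 1.87 and 0.216 RPKM in the adrenal medulla. All 3 adrenal medulla pools were above the carotid body, but AM3 only narrowly. Whether Kcnj5 was called depended on the replicate block and on that pool. The voom log2 difference was -2.71 with adjusted p = 0.0853, against -3.78 and 1.66e-04 without that pool, and with the replicate block it was called (adjusted p = 0.0178). Kcnj5 is known from the zona glomerulosa of the adrenal cortex, and Cyp11b2, the aldosterone synthase of that zone, was at 17.0, 12.8 and 15.3 RPKM in AM1, AM2 and AM3. The part of that zone in the Kcnj5 values was not tested. Kcnj6, for GIRK2, had 1, 1 and 0 reads against 13, 10 and 6 and was outside both tests, as was Kcnj9, for GIRK3, with 9 and 14 reads in all.

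Kv3 subunits carry fast potassium currents that keep action potentials short. Kcnc4, which encodes Kv3.4, was second to Kcnip1 by mean level in the adrenal medulla and was not called. It was at 10.2, 6.70 and 11.5 RPKM in the carotid body and at 8.50, 15.7 and 22.5 RPKM in the adrenal medulla, with overlapping groups (log2 -0.60, 95% interval -1.41 to 0.21, adjusted p = 0.297). Kcnc1, which encodes Kv3.1, was higher in the carotid body at 1.62, 1.68 and 2.19 against 0.860, 0.522 and 0.765 RPKM (log2 0.72 ± 0.17, adjusted p = 0.0150). Its groups did not overlap, which the filter fixed, since no adrenal medulla pool reached 1 RPKM. The call ended without CB3 (0.0562) or AM2 (0.0810) and under quantile scaling (0.0526). Kcnc2 had 20, 16 and 20 reads against 2, 2 and 7 and was called by voom (log2 2.41, adjusted p = 0.00972).

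Some KCNQ channels carry the slow M-current that muscarinic receptors close. Kcnq3 was at 0.112 to 0.479 RPKM in the carotid body and 0.169 to 0.595 RPKM in the adrenal medulla. Kcnq1 was at 0.821 to 1.26 against 0.916 to 2.11 RPKM and was not called (adjusted p = 0.460). Its exons overlap those of the opposite-strand RNA Kcnq1ot1. Kcnq5 was at 0.503, 0.787 and 0.542 against 0.255, 0.250 and 0.104 RPKM (voom log2 1.66, adjusted p = 0.0257). The Kcnq5 call ended without CB1 (0.0503), CB2 (0.0809), CB3 (0.0602) or AM3 (0.0502).

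The ether-a-go-go family holds EAG, ERG and ELK channels, and its low members differed in opposite directions. Kcnh2, which encodes ERG1, a slow channel that sets firing thresholds and repolarises the heart, was at 1.57, 2.93 and 2.75 RPKM in the carotid body and at 3.14, 5.09 and 5.33 RPKM in the adrenal medulla. The groups did not overlap, yet limma did not call it (log2 -0.69 ± 0.26, adjusted p = 0.0973). It was called with the replicate block (adjusted p = 0.0254) and under quantile scaling (0.0479). Its relative Kcnh7, for ERG3, had 33, 18 and 16 reads in the carotid body and 0 in each adrenal medulla pool, at least 7.56-fold higher against a floor of 3 reads per library (voom adjusted p = 2.10e-04). Exons of Kcnh7 overlap those of Gca on the opposite strand, which was at 1.02 to 1.43 RPKM in the adrenal medulla. The ELK gene Kcnh8 was at 1.02, 0.893 and 0.940 against 0.121, 0.146 and 0.0424 RPKM (voom log2 3.29, adjusted p = 0.00135). The ELK gene Kcnh3 was at 0.327, 0.189 and 0.341 against 0.727, 1.25 and 1.56 RPKM (voom log2 -1.99, adjusted p = 0.0128, or 0.0531 without CB2). Kcnh1, for EAG1, was not called by voom (log2 1.00, adjusted p = 0.221), and Kcnh4, Kcnh5 and Kcnh6 had 4, 1 and 23 reads.

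Slack and Slick are sodium-activated potassium channels. Kcnt2, the gene of Slick, had 92, 37 and 68 reads in the carotid body pools against 6, 10 and 4 (voom log2 3.25 ± 0.54, adjusted p = 0.00260). Kcnt1, the gene of Slack, had 21, 10 and 22 against 43, 29 and 59 reads. Both genes' groups were apart, in opposite directions, and Kcnt1 was not called (voom log2 -1.27, adjusted p = 0.0643, or 0.0336 with the replicate block).

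The voom values above cover 20 members below the level filter that had at least 10 reads in 3 libraries, a choice made after the data were seen. Among 15151 genes fitted in that way, 22.1% were called, 14.4% toward the carotid body and 7.7% toward the adrenal medulla. As with the level filter, a gene that had 10 reads in its higher tissue alone was bound to differ, so the count of calls among these 20 is a description only. Of the 20, voom called 6 toward the carotid body (Kcnc2, Kcnh7, Kcnh8, Kcnj3, Kcnq5 and Kcnt2), 4 toward the adrenal medulla (Kcng4, Kcnh3, Kcnj4 and Kcns2) and 10 in neither. Of the called genes Kcnc2, Kcng4, Kcnh7, Kcnh8, Kcnj3, Kcnj4 and Kcns2 reached 10 reads in no library of their lower tissue. Kcnj4, the gene of Kir2.3, had 1, 0 and 8 against 14, 36 and 11 reads (adjusted p = 0.0354) and lost its call without any 1 of 4 pools. These pools were CB1 (0.139), CB2 (0.130), AM1 (0.0566) and AM2 (0.0963), and the replicate block gave 0.0707. The adrenal medulla count was 7 without AM3, which added Kcnd2 (adjusted p = 0.0291), Kcnd3 (0.00398) and Kcnj5, and 2 without CB2. All 11 members called on the log2(RPKM + 1) scale were also called by voom. The 18 genes outside both tests had at most 79 reads each over the 6 libraries, and none averaged above 0.597 RPKM in a tissue.

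**Figure D5:**
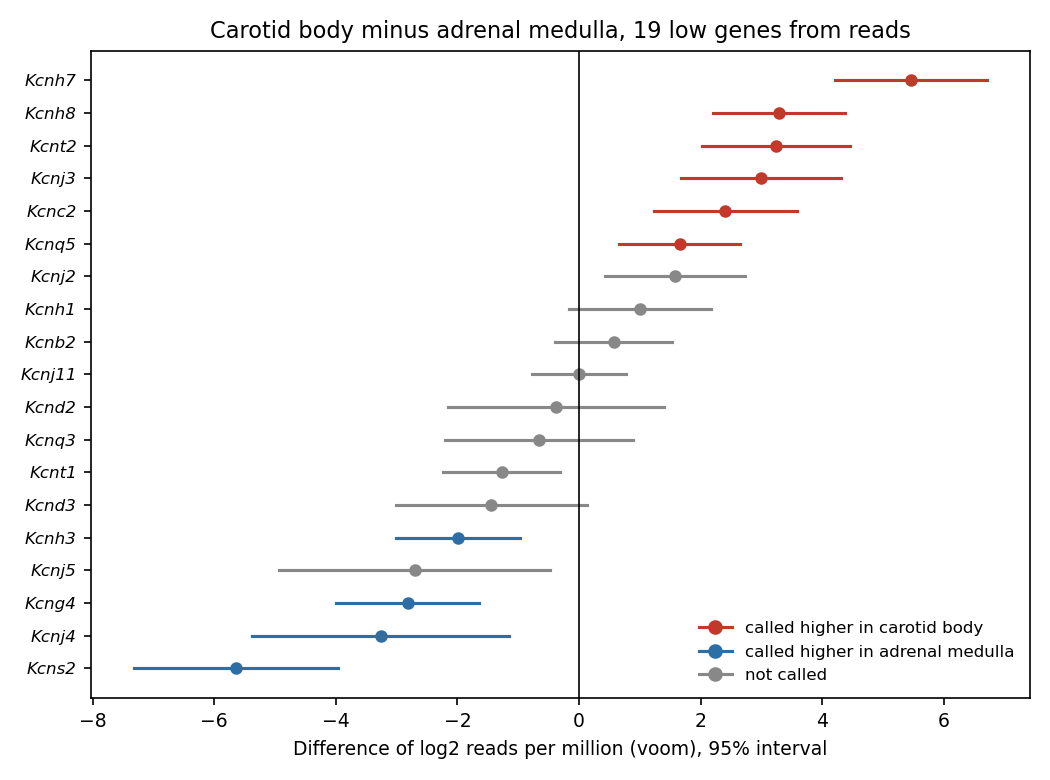
Voom log2 difference, carotid body minus adrenal medulla (horizontal axis), for 19 genes below the level filter (rows), with 95% intervals from limma and colour for the call. Kcnh7 lies at 5.46 and Kcns2 at -5.64, and the interval of Kcnj11 is centred on 0.00.

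A list of 24 proteins that bind, anchor or supply lipid to these channels was called at a share near that of all genes. Of 21 tested, 3 were called toward the carotid body and 2 toward the adrenal medulla, where 14.2% and 7.73% of all genes were, and 16 missed the threshold. Their median log2 difference was -0.13. Besides Abcc9 and Dpp6, the called genes were Dlg2, Ank3 and Nedd4l. Dlg2, the scaffold PSD-93, was at 0.958, 1.20 and 0.936 RPKM in the carotid body against 7.34, 7.58 and 5.60 RPKM (log2 -1.94, adjusted p = 1.97e-04). Ank3, the ankyrin that holds KCNQ channels at axons, was at 11.4, 16.2 and 15.3 against 5.92, 8.15 and 3.94 RPKM (log2 1.16, adjusted p = 0.0176). The Ank3 call ended without CB2 (0.0630), CB3 (0.0686) or both CB2 and AM3 (0.0525). Nedd4l, a ubiquitin ligase, was called at 0.58 (adjusted p = 0.0458) and lost its call without each of the 6 pools in turn (0.0655 to 0.138). Without AM3 the adrenal medulla count rose from 2 to 5.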

How the data were processed

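RNA of 6 pools was measured by sequencing, per the labels. Per the labels' protocols, RNA was amplified as aRNA and fragmented before Illumina library construction. The submitters' processing notes name Bowtie 0.9.8 and mm9. How reads were assigned to genes, and whether strand was kept, is not given in the sources used here. Exons of 16 of the 57 members overlap those of another gene in GENCODE M21, each time on the opposite strand. The deposited values are RPKM, which the authors scaled by the listed mRNA length, for 23511 of 26728 entries. The other 3217 entries hold whole numbers and were left out. RPKM times length, in units of its smallest value above 0 per library, was whole within 0.01 for 106276 of 106276 values, and with the 3217 entries added the reads summed to the RPKM denominator in 6 of 6 libraries.

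Reads recovered in this way entered limma's voom, an alternative added after seeing the data. Genes reaching 1 RPKM in at least 3 libraries were tested with limma 3.58.1 (R 4.3.3) on log2(RPKM + 1), with a variance trend, no block, two-sided, and checked on simulated data. Differences are carotid body minus adrenal medulla. p-values measure only the spread between these pools, and intervals from reads cover counting error only. Same-numbered pools deviated together (r = 0.259, 0.128 and 0.473 for numbers 1, 2 and 3, across genes), although CB2 correlated more with AM1 (0.291). The labels number the pools alike in both tissues but do not say that same-numbered pools shared mice or a day. These correlations do not settle whether they did. An alternative with a replicate block took the numbers as pairs, and calls made with that block rest on this assumption. Replicate pools correlated at 0.963 to 0.989 and differed by more than sampling noise (chi-square per gene 39.6 to 149).

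The members and lists were chosen with earlier results of these data known. Called members and members of at least 5 RPKM are given pool by pool, and of the partner list the largest called differences and 5 fixed genes. Symbols are those of the table, and all 57 were found in the RefSeq table of GRCm38.p6, a later build used for names and promoters. Python 3.11.15, pandas 2.3.3, scipy 1.17.1 and matplotlib 3.10.9 were used. Some members enter the counts and sums and are not reported here by name.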

Additional observations from a re-analysis of the deposited data

How the results depend on the processing

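Of 296 values recomputed for the 19 tested members under up to 16 alternatives, 286 kept their direction and side of the threshold, 7 lost a call, 3 gained one and 0 reversed. Of 11 called members, 9 kept their calls in each alternative that tested them, and Kcnc1 was among the other 2. Kcne3, Kcng2, Kcnj13 and Kcns3 were among these 9, and each passed the level filter through its higher tissue alone. Genes were chosen over all 6 libraries also where a pool was left out, so this count is a description only. The number of members called depended on the filter: with no filter limma called 14 of 56 toward the carotid body and 7 toward the adrenal medulla, where 3313 of all 19505 genes were called, and with a filter of 3 RPKM 3 and 3 of 11 and 2160 of 10647 genes, since fewer genes were tested. Voom on the 39 members of at least 10 reads in 3 libraries called 14 and 7, where 14.4% and 7.7% of 15151 genes were called. Members that had 10 reads in their higher tissue alone were bound to differ. Leaving out 1 pool gave 6 to 8 members toward the carotid body and 3 toward the adrenal medulla, and 2173 to 3463 of all genes. The members' median log2 difference of 0.46 was 0.68 with a pseudocount of 0.1, 0.024 with no filter, -0.33 with a filter of 3 RPKM, 0.29 under quantile scaling, 0.70 by voom and 0.32 to 0.58 without 1 pool. Channel partners higher in the carotid body numbered 1 to 2 without 1 pool and 1 when CB2 and AM3 were both left out, and those higher in the adrenal medulla 2 to 5 and 5. For members below the filter, voom counts were 5 to 7 and 2 to 7 without 1 pool. These counts are descriptions only, since the read filter was applied over all 6 libraries. With the replicate block, the pairing by number, limma called 9 and 4 members and 3613 of 13357 genes, against 2929 without it, and the calls it changed among members are given beside them, with no other member's call changed. Among partners the replicate block added Pip5k1b (adjusted p = 0.0322). The cause of these changes was not tested. Depth left 18 members with at most 79 reads each outside both tests.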

Other observations

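A further KCNE gene lies outside the symbols used here. Kcne1l, the older symbol of Kcne5, was at 1.95, 3.34 and 3.15 RPKM in CB1, CB2 and CB3, on 41, 64 and 71 reads, and at 0.463, 0.727 and 0.168 RPKM in the adrenal medulla pools, on 9, 15 and 4 reads. It was looked up after the values of the other KCNE genes were seen. Every carotid body pool was above every adrenal medulla pool, as held for 22.3% of all genes tested. No adrenal medulla pool of Kcne1l reached 1 RPKM, so the level filter fixed this, as for Kcne3.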
